A study of Mus musculus with 24 samples.

Results

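The genes described here are 49 mouse genes that build, start and run the DNA replication fork, from the origin recognition complex to the enzymes that supply nucleotides. They were chosen by symbol from what the proteins do, by a rule that used no measured value, although earlier results of these data were known when it was drawn up. Of the 49, 48 had at least 1 probe set annotated with that symbol alone, out of 18194 genes so named on the arrays, and Chaf1a was the member with none. The 48 genes were read by 105 probe sets, 85 of them on the first array design (MA) and 20 on the second (MB). Each gene is reported by its brightest MA probe set, and Gins2, read on MB only, by its brightest MB probe set.

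The arrays profiled total RNA of C2C12, an established mouse myoblast line that proliferates in growth medium (GM) and forms muscle cells in differentiation medium (DM). All cells carried a construct of the pSuperR series, either empty or expressing a short hairpin RNA (shRNA) against p68, an RNA helicase encoded by Ddx5. Each of the 4 groups (GM vector, DM vector, GM shRNA, DM shRNA) had 3 arrays per design, 12 per design and 24 in all. The comparison asks how myoblasts with a hairpin against p68 differ from vector cells before and during differentiation. No untransduced cells were among the groups, and the hours in DM, the hairpin sequence and whether the transduced cells were clones or pools were given neither in the labels nor in the files used here. The labels do not state that arrays of a group came from separate cultures, so p-values measure the spread of these arrays alone, and that spread may be technical.

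Values are the deposited array signals, in arbitrary units, and every change is a difference of group means of log2(signal + 15), with its standard error (SE) and n = 3 arrays per group. Adjusted p-values come from limma over all tested probe sets of the design, and a change passed at an adjusted p under 0.05. A probe set was tested if it reached a signal of 30 on at least 3 of 12 arrays, which 46 of the 48 genes did. The reporting probe sets of Orc1 and Tyms did not. Cdc6, Cdc7, Pole and Pola1 had no DM vector array at 30, and Cdc7 reached that signal in GM only.

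The median residual SD was 0.21 on MA and 0.52 on MB, so smaller changes could be called on MA. Of 6 tested Ddx5 probe sets, 1 was lower with the shRNA in DM and 0 were lower in GM at the limma threshold (1 at an unadjusted p under 0.05). The brightest one read 673.5, 541.0 and 407.9 in DM vector cells and 373.1, 302.5 and 302.5 in DM shRNA cells (change -0.68 ± 0.16 SE, limma adjusted p = 0.0068), while its GM change of -0.31 ± 0.16 did not pass (0.287). On MA the third DM vector array correlated least with its own group, with a mean r of 0.951. On MB the second DM vector array did so, with a mean r of 0.825. Calls of reporting probe sets that ended or appeared without 1 of these arrays are given with that adjusted p, alone or within a range. As a check of the labelled cells, the summed signal of 6 muscle markers lay between 3315 and 3675 on the GM vector arrays and between 17890 and 26640 on the DM vector arrays. Of 17 measured markers of other cell types 7 were tested, and 1 passed, Adgre1, which was higher in DM than in GM vector cells.

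DNA replication is licensed when the origin recognition complex, with Cdc6 and Cdt1, loads the ring-shaped MCM2-7 helicase onto origins in G1. In S phase the Cdc7-Dbf4 kinase, Cdc45 and the GINS complex turn that ring into a moving helicase, polymerase alpha with primase lays primers, and polymerases delta and epsilon, held by the Pcna clamp, copy the strands. Many of these genes are known targets of E2F factors and are switched off when myoblasts leave the cell cycle to form myotubes.

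In vector cells 41 of the 48 genes fell on moving from GM to DM, 3 rose and 2 tested genes did not pass. The 41 include Cdc7, which passed the signal filter through GM arrays alone, so the filter favoured its fall. On MA the counts were 40 lower and 3 higher of 47 genes, where 25.4% of all tested probe sets were lower and 23.9% higher. The median change of the 46 tested genes was -1.61, against 0.0085 over all tested MA probe sets. Changes ran from -4.64 for Gins2 to 1.42 for Orc4. In array data of mixed cells, fewer cells in cycle and less of each RNA per cell cannot be told apart. In shRNA cells 36 genes fell and 2 rose between the same media, with a median of -0.85. Of these, 35 lower and 2 higher were on MA, where 17.5% of tested probe sets were lower and 16.3% higher.

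With both constructs compared in DM, 28 of the 48 genes were higher in shRNA cells, 1 was lower (Gins4) and 17 tested genes did not pass, with a median change of 0.57. Of them 27 higher and 1 lower were on MA, where 10.7% of tested probe sets were higher and 6.24% lower. In GM 1 gene was higher (Orc6) and 7 were lower with the shRNA, with a median of -0.12, where 3.99% of tested MA probe sets were higher and 2.57% lower. The difference between the DM effect of the shRNA and its GM effect, fitted as an interaction, was positive for 25 genes and negative for 0 at the limma threshold, 24 of the 25 on MA, where 5.48% of tested probe sets were positive and 4.48% negative. At an unadjusted p under 0.05 the counts were 29 and 1 (Gins4), and limma without the mean-variance trend gave 24 and 0. These comparisons share arrays: the DM vector arrays enter the vector medium change, the DM comparison and the interaction, so their counts are not independent of each other.

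**Figure D1:**
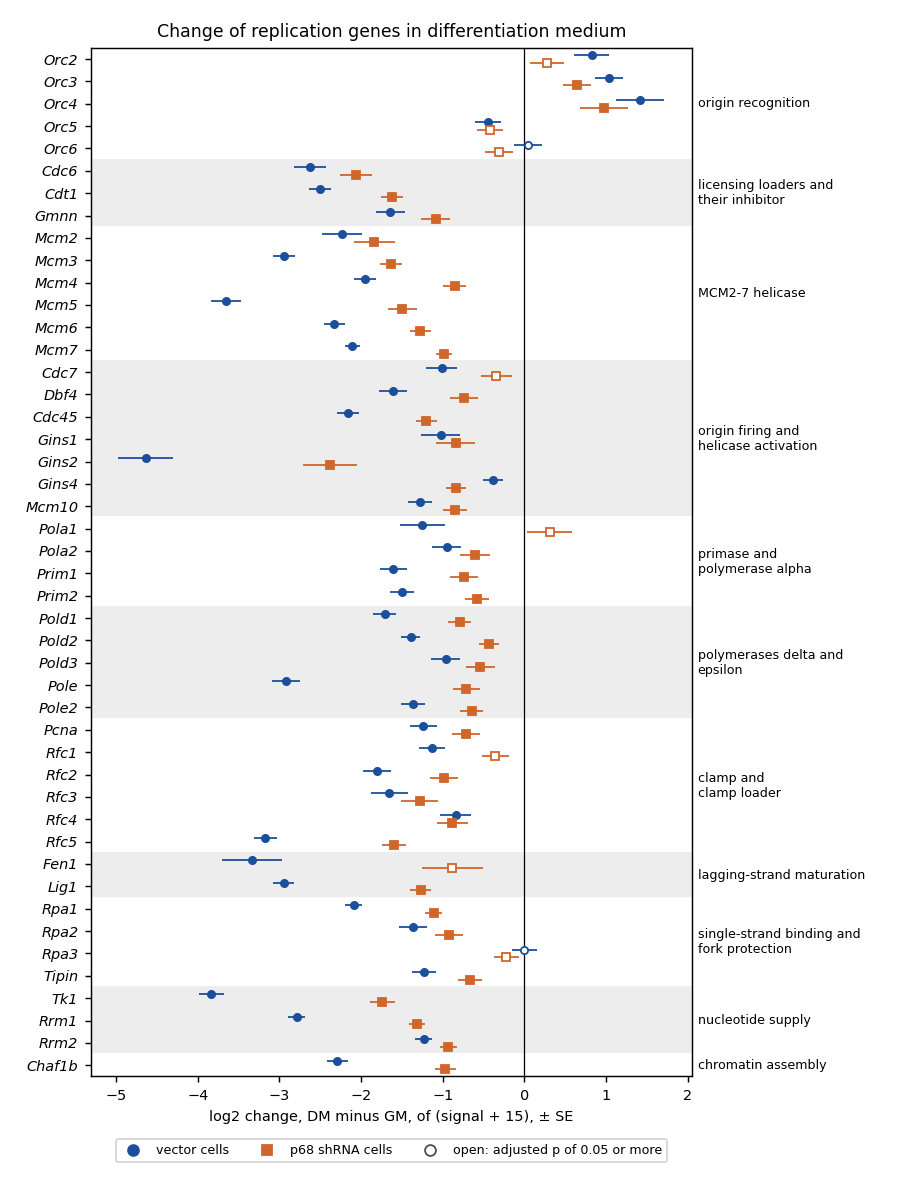
Change from GM to DM (log2 of signal + 15, x axis) of each replication gene, grouped by step, in vector and in shRNA cells, with the standard error. Most points lie left of 0 in both, the vector points usually farther left, and Orc2, Orc3 and Orc4 lie to the right.

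Since so many members fell together, their promoters were searched for letters of known cell cycle elements. RefSeq promoters (GRCm38.p6, 250 bases before to 50 after the start, 300 in all) were held for 40 of the 49 genes. E2F-type letters were searched as TTTCCCGC, TTTCGCGC, TTTGCCGC and TTTGGCGC on both strands, and matches could overlap. At least 1 promoter held them in 14 of the 40 genes (35.0%), compared with 339 of 7012 genes tested on MA (4.83%) and 704 of 27025 genes in the table (2.60%). A match is a description of letters, not of binding. The stretches printed here show the matches, in capitals, of Cdc6 and Mcm5, a loader and a helicase subunit that fell strongly, and of Mcm6, which holds 3. Orc3 is shown as a gene that rose with such letters, and Tk1 as one with a large fall whose promoter holds none. Each reads 5′ to 3′ on the gene's strand.
Cdc6, chr11:98907993-98908050, plus strand, 158 to 101 bases before the start: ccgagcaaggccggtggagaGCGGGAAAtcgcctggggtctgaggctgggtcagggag
Mcm5, chr8:75109336-75109397, plus strand, 173 to 112 bases before the start: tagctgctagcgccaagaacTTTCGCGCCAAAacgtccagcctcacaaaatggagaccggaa
Mcm6, chr1:128359715-128359835, minus strand, 130 to 10 bases before the start: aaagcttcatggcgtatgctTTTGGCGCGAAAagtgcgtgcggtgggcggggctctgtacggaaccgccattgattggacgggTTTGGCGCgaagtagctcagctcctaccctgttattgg
Orc3, chr4:34614946-34615003, minus strand, 61 to 4 bases before the start: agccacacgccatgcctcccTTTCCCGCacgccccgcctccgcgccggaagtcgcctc
Tk1, chr11:117826015-117826104, minus strand, 90 to 1 bases before the start: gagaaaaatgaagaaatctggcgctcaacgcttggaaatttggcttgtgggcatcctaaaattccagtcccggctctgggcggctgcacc

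The other holders were Cdt1, Lig1, Mcm3, Mcm7, Orc1, Pola1, Pold1, Pold3, Pole2 and Rfc3. The 13 tested genes with a match had a median vector change of -2.11, with a range of -3.65 to 1.04. The 24 tested genes with a promoter and no match had one of -1.33, with a range of -3.83 to 1.42. Their medians in the DM comparison were 0.70 (-0.093 to 1.56) and 0.49 (-0.35 to 1.84). The ranges overlapped widely, and the difference was not tested. CCAAT on either strand was found for 23 genes (57.5%), compared with 42.9% of tested genes. TTTGAA or TTCGAA, letters of the cell cycle homology type, were found for 8 (20.0%), compared with 16.1%.

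The origin recognition complex, which marks origins for loading, was the step that did not fall as a whole. In vector cells Orc2, Orc3 and Orc4 rose, Orc5 fell, and Orc6 did not pass. Orc3 read 99.29, 92.24 and 95.07 on the GM vector arrays and 239.9, 255.9 and 153.2 in DM, and 133.2, 132.4 and 100.2 to 208.4, 194.7 and 189.2 in shRNA cells. Its GM and DM arrays did not overlap with either construct. It rose by 1.04 ± 0.17 with the vector (limma adjusted p = 0.000132) and by 0.64 ± 0.17 with the shRNA (0.0087), although the mean of all its MA probe sets did not pass in shRNA cells (0.139). Its 3 MA probe sets disagreed in sign in vector cells, at 1.04, 0.49 and -0.26, and the latter 2 did not pass.

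Orc4 went from 23.38, 28.74 and 26.20 in GM vector cells to 147.0, 124.1 and 43.45 in DM, the third array lying well below the other two. In shRNA cells it read 31.18, 34.30 and 42.31 in GM and 110.4, 74.66 and 72.41 in DM. The groups did not overlap, and it rose by 1.42 ± 0.30 (limma adjusted p = 0.001) with the vector and 0.97 ± 0.30 (0.0195) with the shRNA. The shRNA call ended without DM shRNA array 1 or GM shRNA array 2 or 3 (0.0545 to 0.0901). A second Orc4 probe set changed by 0.34 in vector cells and did not pass (0.244). Orc2 rose by 0.82 ± 0.21 in vector cells (0.0046), and its change of 0.27 in shRNA cells did not pass. The vector changes of its 3 tested MA probe sets ran from 0.026 to 0.82. The second brightest read 46.52, 40.06 and 32.74 in GM vector cells and 54.64, 45.67 and 25.36 in DM, with overlap. Orc5 fell by 0.45 ± 0.16 in vector cells (0.0275), a call that ended without DM vector array 2 or 3 or GM vector array 1 or 4 (0.0558 to 0.114), and its change of -0.42 in shRNA cells did not pass (0.0508). That change did pass under 7 other settings (0.0288 to 0.0473) and without DM vector array 1 or 3, GM vector array 3 or DM shRNA array 1 (0.0324 to 0.0495, 0.033 without DM vector array 3).

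Orc6 was nearly level in vector cells, with 272.8, 216.9 and 246.2 in GM and 330.9, 265.8 and 182.9 in DM (change 0.05 ± 0.17, limma adjusted p = 0.846). In shRNA cells it read 383.7, 375.6 and 390.2 in GM, above all GM vector arrays, and 346.5, 308.7 and 264.7 in DM. It was the only member that passed as higher with the shRNA in GM (0.62 ± 0.17, 0.0461), and that call ended on leaving out any of 10 arrays in turn (0.0505 to 0.181). Orc1, the largest subunit, was dim on MA, with 23.70, 40.74 and 24.67 in GM vector cells and 12.07, 18.48 and 17.37 in DM. On MB its probe set read 469.6, 455.8 and 425.1 against 286.2, 256.8 and 254.6, with no overlap, and fell by 0.73 (0.0213). In shRNA cells the same MB probe set read 316.1, 391.7 and 367.4 in GM and 352.3, 341.1 and 288.4 in DM. Those ranges overlapped, and the change of -0.13 did not pass (0.869), while the interaction of 0.60 did not pass either (0.558). No subunit passed in the DM comparison or the interaction on MA. Without DM vector array 3, Orc4 was lower with the shRNA in DM (-0.59, 0.0388) and both Orc3 and Orc4 had negative interactions (-0.61, 0.0391, and -0.90, 0.0283).

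The loaders fell with both constructs and were higher in shRNA cells in DM. Cdt1, which brings MCM2-7 to the origin, read 779.3, 872.0 and 696.0 in GM vector cells and 106.8, 122.2 and 148.9 in DM. The shRNA cells gave 646.6, 776.9 and 732.8 in GM and 224.1, 235.3 and 211.1 in DM. The GM ranges of the constructs overlapped and the DM ranges did not. The vector fall was 2.51 ± 0.13 on the log2 scale (change -2.51, limma adjusted p = 1.01e-09), the DM difference 0.77 ± 0.13 (0.000945), and the interaction 0.89 ± 0.19 (0.0073).

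Cdc6, the ATPase that works with Cdt1, read 135.6, 126.4 and 106.5 in GM vector cells and 8.531, 9.262 and 4.355 in DM, near the low end of the scale. The shRNA arrays read 146.5, 142.4 and 131.6 in GM and 33.32, 13.03 and 22.34 in DM. All DM shRNA arrays lay above all DM vector arrays, by 0.73 ± 0.20 (limma adjusted p = 0.018), but the call ended without DM shRNA array 1 or 3 (0.0502 to 0.091) and with the compared groups fitted alone or a pseudocount of 50 (0.0618 to 0.13). The vector change was -2.62 ± 0.20 (4.95e-08) and the interaction of 0.56 did not pass (0.249). Gmnn, whose product geminin binds Cdt1 and blocks relicensing, read 124.2, 89.07 and 98.70 in GM vector cells and 32.11, 16.65 and 21.23 in DM. It read 146.4, 155.6 and 158.2, then 72.02, 52.31 and 69.85, in shRNA cells. The shRNA arrays lay above the vector arrays in both media, by 1.07 ± 0.18 in DM (0.000777) and by 0.51 in GM, where it did not pass (0.107), although it did with the compared groups fitted alone (0.0399). So the inhibitor and the loaders moved the same way in this comparison.

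All 6 subunits of the MCM2-7 helicase fell with both constructs, and 5 of them were higher with the shRNA in DM. Mcm5 read 1078, 1108 and 924.6 in GM vector cells and 78.96, 83.23 and 48.02 in DM. In shRNA cells it read 743.8, 713.0 and 585.3 in GM and 186.2, 229.4 and 286.7 in DM. It was lower than vector in GM and higher in DM without any overlap of arrays, although the GM change of -0.60 ± 0.18 did not pass (limma adjusted p = 0.0647). Without DM vector array 3 the GM change did pass (0.0167). The vector fall was -3.65 ± 0.18 (5.9e-10), the DM difference 1.56 ± 0.18 (4.1e-05) and the interaction 2.16 ± 0.26 (0.000126). Its brightest MB probe set gave -3.72, 1.04 (0.0056) and 1.84 (0.0026) for the same 3 quantities.

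Mcm4 had the smallest vector change of the ring, and read 358.5, 368.4 and 391.5 in GM and 91.57, 95.69 and 69.87 in DM. With the shRNA it read 397.6, 325.5 and 335.2 in GM, overlapping the vector arrays, and 191.6, 211.3 and 162.7 in DM, well above them. The vector change was -1.95 ± 0.14 (limma adjusted p = 2.59e-08) and the DM difference 1.02 ± 0.14 (0.00015). Mcm3 went from a group mean of 747.8 to 84.34 in vector cells and from 514.2 to 156.3 in shRNA cells. Mcm6 went from 950.7 to 178.9 and from 740.4 to 297.9, and Mcm7 from 2947 to 673.3 and from 2194 to 1105. These 3 subunits were higher with the shRNA in DM by 0.70 to 0.78 (0.000154 to 0.0016). Mcm2 went from 741.3 to 146.9 and from 813.9 to 229.5, and its DM difference of 0.54 ± 0.25 did not pass (0.158). In GM Mcm3 and Mcm7 were lower with the shRNA, by 0.53 and 0.42, but both calls ended on leaving out single arrays. For Mcm3 these were any of the 6 GM arrays (0.0548 to 0.127), and for Mcm7 GM shRNA array 4 or GM vector array 1 or 3 (0.0608 to 0.0767). The interaction was positive for Mcm3 to Mcm7 and did not pass for the brightest Mcm2 probe set (0.40, 0.549). A second Mcm2 probe set read 153.9, 191.2 and 200.5 in DM vector cells and 217.0, 231.2 and 235.3 in DM shRNA cells. Its constructs did not overlap in either medium, and its interaction of 0.62 passed (0.0266), while its DM difference of 0.31 (0.0817) and its GM change of -0.31 (0.136) did not.

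All 7 tested factors that fire origins fell in vector cells, among them Cdc7, which reached the signal filter on GM arrays only. Gins2, a GINS subunit, had the largest change of all members. On MB it read 1971, 2227 and 2360 in GM vector cells and 110.3, 65.68 and 52.69 in DM. It read 2220, 1922 and 1962 in GM shRNA cells and 375.0, 754.1 and 186.2 in DM, with wide spread among the DM shRNA arrays but all above the vector arrays. It changed by -4.64 ± 0.33 in vector cells (limma adjusted p = 1.2e-08), and the DM difference 2.15 ± 0.33 (0.0022). The DM call ended with eBayes without trend (0.0824). Its second MB probe set gave -3.59 and 1.81 (0.0084). The interaction of 2.26 ± 0.47 passed narrowly (0.045), and ended on leaving out any of 10 of the 12 MB arrays in turn (0.0796 to 0.12).

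Another GINS subunit, Gins4, went the other way with the shRNA. It read 218.5, 194.1 and 212.4 in GM vector cells and 163.8, 159.5 and 145.4 in DM, against 225.0, 219.9 and 183.7 and then 115.1, 109.4 and 106.3 in shRNA cells. The DM shRNA arrays were all below the DM vector arrays. It fell by 0.38 ± 0.12 in vector cells (limma adjusted p = 0.0146, and 0.0564 without GM vector array 1) and by 0.84 ± 0.12 in shRNA cells (7.49e-05). The DM change of -0.45 ± 0.12 (0.0163) did not pass without DM shRNA array 2 or 3 (0.0542 to 0.0552) or with the compared groups fitted alone (0.0679). Cdc45, which joins GINS on the helicase, went from a mean of 180.7 to 29.01 in vector cells and from 164.5 to 63.15 in shRNA cells, and was higher with the shRNA in DM by 0.84 (0.000464). Dbf4, the activating subunit of the Cdc7 kinase, was higher by 0.76 (0.0069, and 0.0945 for the mean of its probe sets), whereas Cdc7, Gins1 and Mcm10 differed by 0.44, 0.58 and 0.22 and did not pass. The Dbf4 interaction of 0.86 (0.0371) ended on leaving out any of 7 arrays (0.0608 to 0.097).

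The 4 subunits of the polymerase alpha-primase complex fell in vector cells. Prim1, the catalytic primase, read 232.1, 194.0 and 245.9 in GM and 48.68, 83.79 and 61.30 in DM. The shRNA arrays read 262.7, 261.0 and 198.0 in GM and 146.8, 122.4 and 143.0 in DM, the DM arrays lying above all DM vector arrays. Its vector change was -1.60 ± 0.17 (limma adjusted p = 1.9e-06) and its DM difference 0.96 ± 0.17 (0.0013). The interaction of 0.87 (0.0346) ended on leaving out any of 6 arrays (0.0621 to 0.089). Pola2, an accessory subunit, read 183.2, 185.0 and 187.8 in GM vector cells and 66.69, 108.7 and 94.34 in DM. It read 129.7, 135.9 and 156.7 and then 118.3, 70.69 and 77.78 in shRNA cells, so its DM arrays overlapped between constructs. The vector change was -0.95 ± 0.18 (0.000496) and the DM difference -0.02 ± 0.18 (0.959). Its shRNA change of -0.61 (0.0178) did not pass without DM shRNA array 2 or 3 or GM shRNA array 4 (0.0665 to 0.085).

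Pola1, the catalytic subunit, was dim on MA in all groups. It read 46.63, 42.98 and 45.37 in GM vector cells and 22.55, 10.50 and 1.665 in DM, against 31.43, 18.24 and 46.26 and then 36.63, 47.62 and 40.66 in shRNA cells. It fell by 1.25 ± 0.28 in vector cells (limma adjusted p = 0.0017), and its change of 0.31 in shRNA cells did not pass (0.43). The DM difference was 1.17 ± 0.28 (0.0092). The interaction of 1.56 (0.021) did not pass without DM shRNA array 2 or GM shRNA array 3 (0.0545 to 0.0581). A brighter Pola1 probe set on MB read 102.0, 186.7 and 119.7 in GM vector cells and 132.1, 176.3 and 58.28 in DM. In shRNA cells it read 79.06, 47.72 and 133.5 in GM and 153.3, 101.1 and 34.35 in DM. Its ranges overlapped between media and between constructs, so the Pola1 calls rest on the dim MA probe set. Prim2, the large primase subunit, went from a mean of 143.6 to 41.45 and from 134.4 to 84.87, a DM difference of 0.83 (0.0011).

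Polymerases delta and epsilon fell at all 5 subunits measured, and 4 were higher with the shRNA in DM. Pole, the catalytic subunit of the leading-strand polymerase, read 195.7, 154.3 and 183.8 in GM vector cells and 8.259, 15.31 and 8.287 in DM. In shRNA cells it read 134.7, 95.31 and 109.5 in GM and 56.72, 62.13 and 69.74 in DM. The shRNA arrays were all below vector in GM and all above it in DM. From GM to DM it changed by -2.92 ± 0.17 with the vector (limma adjusted p = 2.89e-09), the DM difference 1.61 ± 0.17 (1.66e-05) and the interaction 2.21 ± 0.24 (5.92e-05). The GM change of -0.60 ± 0.17 (0.0491) ended on leaving out any of 9 arrays (0.0515 to 0.179).

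Its partner subunit Pole2 read 166.4, 165.5 and 162.1 in GM vector cells and 51.50, 52.70 and 60.24 in DM, and 183.9, 132.2 and 145.8 and then 78.95, 103.9 and 95.04 in shRNA cells. The GM arrays overlapped between constructs and the DM arrays did not, the DM difference being 0.62 ± 0.14 (limma adjusted p = 0.008). Its interaction of 0.72 (0.0378) ended on leaving out any of 9 arrays (0.0603 to 0.104). Pold1, the catalytic subunit of polymerase delta, went from a mean of 338.4 to 93.01 in vector cells and from 259.1 to 143.4 in shRNA cells. Pold2 went from 773.4 to 283.3 and from 529.3 to 387.8. Their DM differences of 0.56 (0.014) and 0.43 (0.0227) did not pass without DM shRNA array 2 or DM vector array 2 (Pold1 0.0542 to 0.0696, Pold2 0.082 to 0.112), nor with the compared groups fitted alone (0.0591 and 0.0658). Pold3 differed by 0.33 and did not pass (0.245). Its fall in shRNA cells (-0.54, 0.0285) ended without any DM shRNA array or GM shRNA array 2 (0.055 to 0.135).

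The clamp and its loader fell at all 6 genes. Pcna, the sliding clamp, read 2065, 2108 and 2126 in GM vector cells and 1098, 1028 and 606.9 in DM, array 3 being the low one. It read 2173, 2334 and 1981 in GM shRNA cells and 1397, 1282 and 1258 in DM. The DM arrays did not overlap, but the difference of 0.56 ± 0.17 (limma adjusted p = 0.0315) came to 0.30 without DM vector array 3 (0.0496) and did not pass without any 1 of the DM shRNA arrays (0.0619 to 0.101), nor under 3 other settings (0.0566 to 0.122). Its fall in vector cells was -1.24 ± 0.17 (2.33e-05) and the interaction of 0.52 did not pass (0.197).

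Rfc5, a small subunit of the loader, had the largest change of this step. It read 543.5, 546.1 and 548.3 in GM vector cells and 57.59, 47.46 and 38.32 in DM. The shRNA cells gave 419.3, 317.9 and 337.7 in GM and 94.79, 119.7 and 109.6 in DM, below vector in GM and above it in DM without overlap. From GM to DM it changed by -3.17 ± 0.14 with the vector (limma adjusted p = 2.37e-10), the DM difference 0.98 ± 0.14 (0.000305) and the interaction 1.57 ± 0.20 (0.000232). The GM change of -0.60 ± 0.14 (0.0225) ended on leaving out any of 5 arrays (0.0641 to 0.098). Rfc1, the large subunit, differed in DM by 0.56 (0.027), a call that ended without DM shRNA array 1 or 3 or DM vector array 2 or 3 (0.0596 to 0.0927). Rfc2, Rfc3 and Rfc4 differed by 0.41, 0.17 and 0.47 and did not pass, although Rfc2 did without DM shRNA array 1 (0.0137). The interactions of Rfc1 (0.78, 0.0466) and Rfc2 (0.82, 0.045) ended on leaving out any of 11 and of 9 arrays (0.055 to 0.114 and 0.0709 to 0.121).

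Fen1 and Lig1, which trim and seal Okazaki fragments, both fell in vector cells and were both higher with the shRNA in DM. Lig1 read 696.1, 859.7 and 621.5 in GM vector cells and 68.97, 90.86 and 81.99 in DM, and 480.9, 527.1 and 517.6 and then 193.6, 201.2 and 211.1 in shRNA cells. Its shRNA arrays were all below vector in GM and all above it in DM. Its fall in vector cells was -2.95 ± 0.13 (limma adjusted p = 2.01e-10), the DM difference 1.19 ± 0.13 (2.73e-05) and the interaction 1.68 ± 0.19 (7.45e-05). The GM change of -0.49 ± 0.13 (0.0386) ended on leaving out any of 7 arrays (0.0504 to 0.183).

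Fen1, by its brightest probe set, read 1676, 1716 and 1475 in GM vector cells and 249.2, 50.28 and 231.2 in DM, array 2 being far below the other two. In shRNA cells it read 946.5, 994.7 and 677.8 in GM and 421.3, 445.0 and 517.3 in DM. Its vector change was -3.34 ± 0.37 (limma adjusted p = 3.3e-06), and the shRNA change of -0.89 ± 0.37 did not pass (0.0823). Without DM vector array 1 or 2 the shRNA change did pass (0.0494 and 0.000335). The DM difference of 1.55 ± 0.37 (0.0097) came to 0.90 without DM vector array 2 (0.0024), and did not pass with the compared groups fitted alone (0.0578). A second Fen1 probe set, with no such low array, gave a vector change of -2.72, an shRNA change of -1.66 (6.12e-08) and a DM difference of 0.65 (0.0014). In GM the shRNA arrays were all below the vector arrays at the brightest probe set, but the change of -0.90 ± 0.37 did not pass (0.182) except without DM vector array 2 (0.0026) or with the compared groups fitted alone (0.0033). At the second probe set the GM change was -0.41 and passed (0.0482). The interaction was 2.45 at the brightest probe set (0.0088), 1.80 there without DM vector array 2 (0.000283), and 1.06 at the second probe set (0.0011).

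Of the single-strand binding and fork protection genes, Rpa1, Rpa2 and Tipin fell in vector cells and Rpa3 did not pass. Rpa1, the large subunit of replication protein A, read 3730, 3478 and 3492 in GM vector cells and 837.1, 843.6 and 799.5 in DM. It read 2663, 2603 and 2442 in GM shRNA cells and 1027, 1202 and 1337 in DM, so the constructs did not overlap in either medium. Rpa1 changed by -2.09 ± 0.10 in vector cells (limma adjusted p = 5.66e-10), the DM difference 0.51 ± 0.10 (0.0033) and the interaction 0.98 ± 0.15 (0.000789). The GM change of -0.47 ± 0.10 (0.014) did not pass without GM shRNA array 4 or GM vector array 1 (0.0607 to 0.0685).

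Rpa3, the smallest subunit of the same complex, was level across media. It read 108.7, 99.35 and 101.0 in GM vector cells and 116.3, 113.5 and 81.38 in DM, and 133.4, 135.5 and 160.9 and then 143.8, 111.3 and 108.5 in shRNA cells. Its GM and DM arrays overlapped with both constructs, and the vector change was -0.0040 ± 0.15 (limma adjusted p = 0.985). Tipin, which with Timeless steadies stalled forks, read 204.4, 208.4 and 210.5 in GM vector cells and 94.53, 80.49 and 66.49 in DM. It read 220.7, 168.1 and 193.5 and then 139.3, 105.1 and 106.4 in shRNA cells. The vector change was -1.23 ± 0.15 (7.67e-06), and the DM difference of 0.47 ± 0.15 (0.0453) ended on leaving out any of 9 arrays (0.0577 to 0.185). Rpa2 differed in DM by 0.03 and did not pass (0.94).

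The nucleotide supply genes fell in vector cells, at 3 of 3 tested. Tk1, thymidine kinase of S phase cells, read 1374, 1913 and 1657 in GM vector cells and 97.25, 122.0 and 85.82 in DM. It read 1259, 1246 and 1632 in GM shRNA cells and 385.3, 443.2 and 372.9 in DM, overlapping vector in GM and well above it in DM. Tk1 changed by -3.83 ± 0.15 in vector cells (limma adjusted p = 6.02e-11), the DM difference 1.84 ± 0.15 (2.51e-06) and the interaction 2.09 ± 0.22 (4.61e-05). Rrm1, the large subunit of ribonucleotide reductase, went from a mean of 1069 to 141.8 and from 842.1 to 330, and was higher with the shRNA in DM by 1.14 ± 0.10 (4.58e-06). A second Rrm1 probe set on MA changed less in vector cells (-0.85), and its DM difference of 0.43 did not pass (0.0739). In GM it read 313.7, 302.2 and 379.8 with the vector and 427.2, 377.9 and 347.8 with the shRNA. In DM it read 163.1, 147.9 and 227.2, then 221.9, 274.4 and 234.8. Its constructs overlapped in both media.

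The small reductase subunit Rrm2 fell less. It read 2565, 2471 and 2792 in GM vector cells and 1080, 988.4 and 1247 in DM, and 2671, 2469 and 2629 and then 1368, 1400 and 1277 in shRNA cells. The DM arrays did not overlap between constructs, yet the difference of 0.29 ± 0.10 did not pass (limma adjusted p = 0.0698) except without DM vector array 3 (0.0145) and under 3 other settings (0.0286 to 0.0487). The vector change was -1.23 ± 0.10 (1.64e-07). Tyms, thymidylate synthase, had MA group means of 8.351 to 12.63, all below the tested range, and its MB probe set went from 177.9 to 79.45 in vector cells without passing (-1.04, 0.0814). Chaf1b, a subunit of the factor that places histones behind the fork, read 243.2, 231.5 and 206.4 in GM vector cells and 29.72, 40.45 and 33.69 in DM. With the shRNA it read 209.2, 206.3 and 205.1 and then 100.4, 98.52 and 96.09, above all DM vector arrays. Its DM difference was 1.20 ± 0.13 (1.66e-05) and its interaction 1.32 ± 0.18 (0.000327). A Chaf1b probe set on MB did not show that DM difference. It read 199.4, 160.6 and 234.2 in DM vector cells and 224.0, 188.4 and 111.9 in DM shRNA cells, with overlap.

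**Figure D2:**
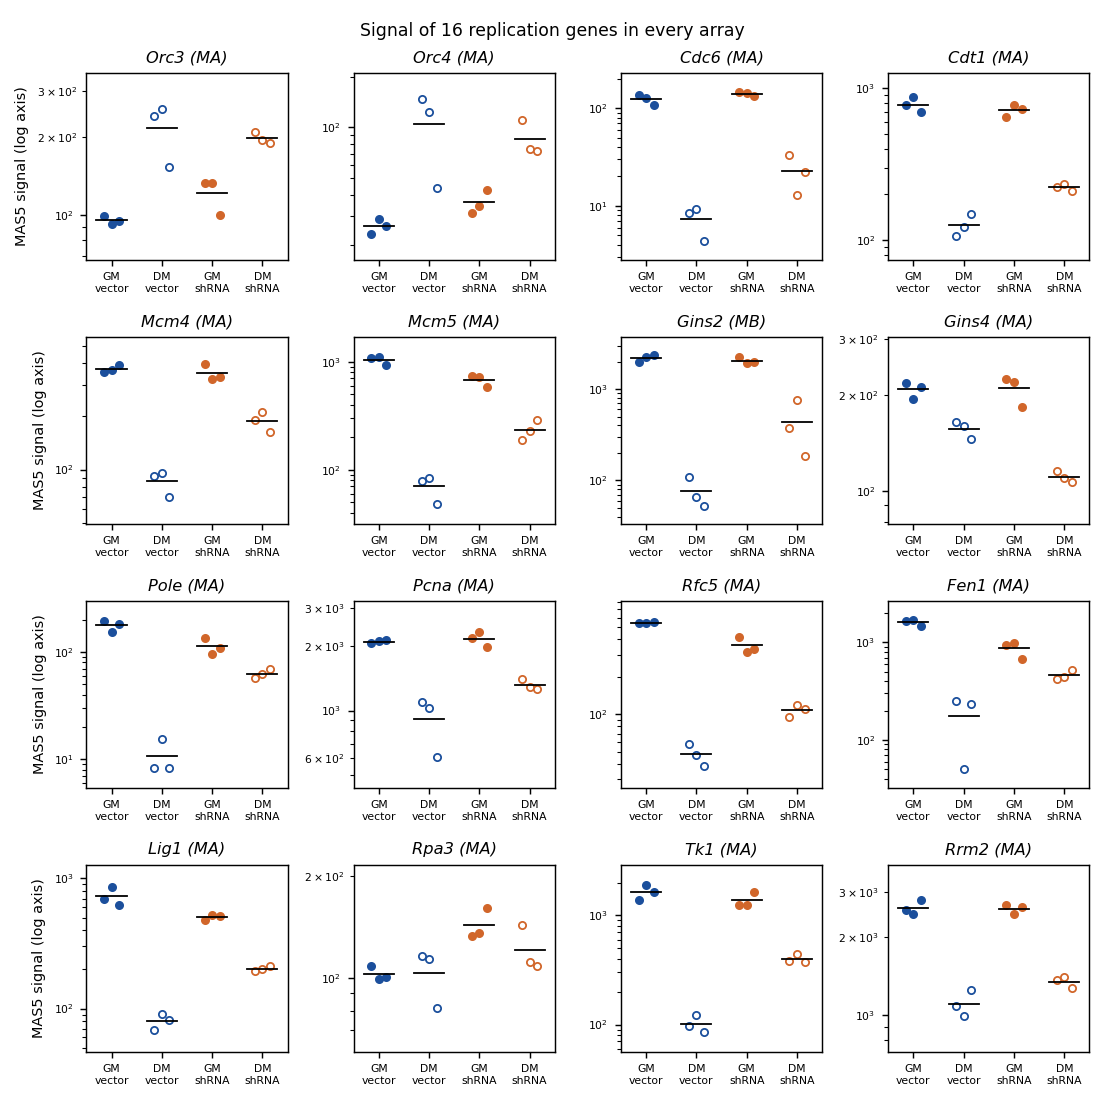
Signal on each array (arbitrary units, log axis) of 16 replication genes, by construct (colour) and medium (filled GM, open DM), with the group mean as a bar. For Mcm5, Pole, Rfc5 and Lig1 the shRNA arrays lie below vector in GM and above it in DM, while Gins4 is lower with the shRNA in DM and Rpa3 overlaps across media.

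By step, the 28 genes higher with the shRNA in DM included Cdc6, Cdt1 and the inhibitor Gmnn, 3 of the 3 licensing genes. With them came 5 of 6 helicase subunits, 3 of 7 firing factors and 3 of 4 alpha-primase subunits. The delta and epsilon subunits gave 4 of 5, and the clamp and clamp loader genes 3 of 6. Both lagging-strand genes, 2 of 4 single-strand binding and fork genes, 2 of 3 tested nucleotide genes and Chaf1b completed the count. Of the 5 origin recognition genes tested, 0 passed in DM at the limma threshold, and 0 did so at an unadjusted p under 0.05. In GM the 7 lower genes were Mcm3, Mcm7, Pold2, Pole, Rfc5, Lig1 and Rpa1, and each of those calls, like that of Orc6, ended on leaving out some single array. Pold2 was lower in GM by 0.52 (0.018), and that call ended on leaving out any of 4 arrays (0.0524 to 0.0954). Without DM vector array 3, Mcm5, Mcm6 (0.0465) and Rrm1 (0.0373) passed in GM too, and without DM vector array 2 so did Fen1 (0.0026).

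**Figure D3:**
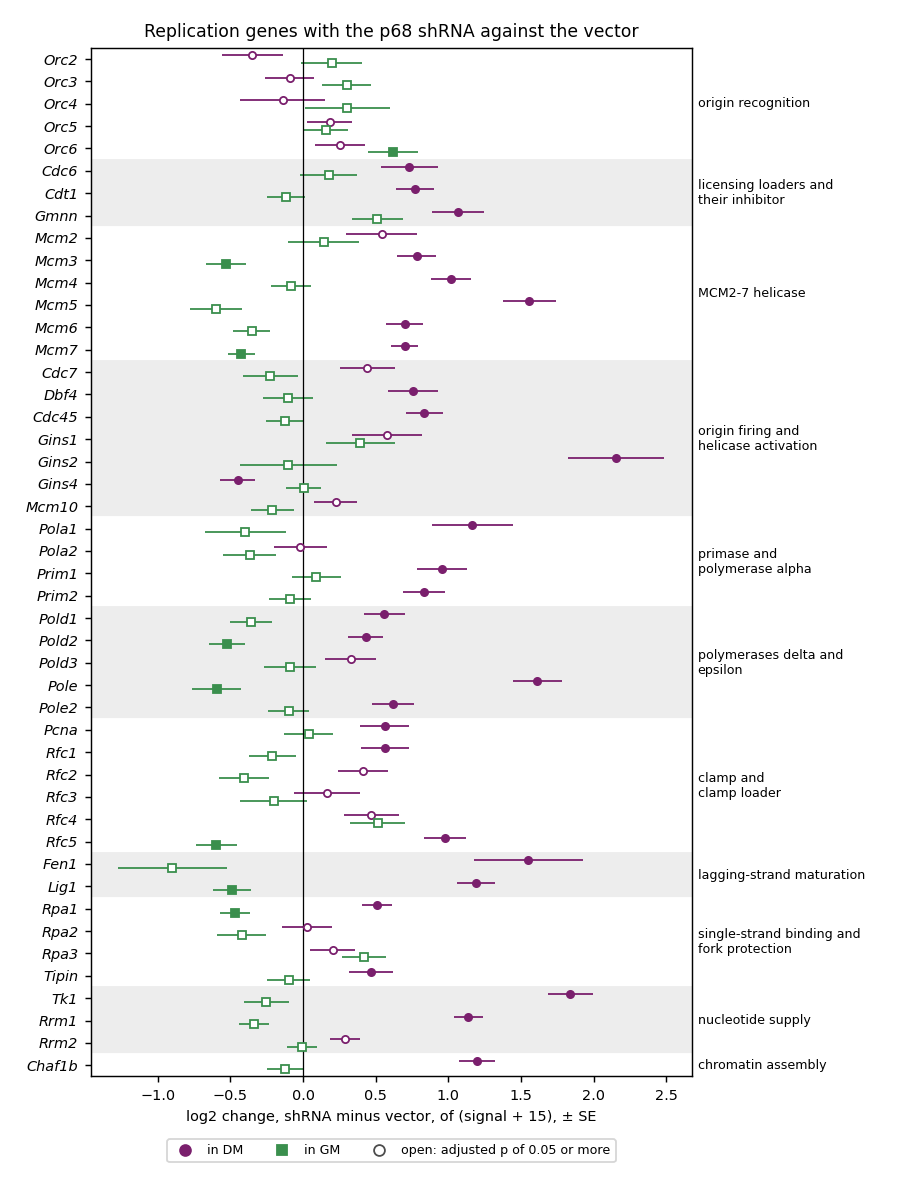
Difference between shRNA and vector cells (log2 of signal + 15, x axis) of each replication gene, grouped by step, in GM and in DM, with the standard error. The DM points lie mostly right of 0 and most GM points near or left of it. Gins4 lies to the left in DM, and Orc6, Rfc4, Gmnn and Rpa3 are among those to the right in GM.

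The share of the GM signal left in DM gives the same arrays on a linear scale. In vector cells the 46 tested genes kept a median of 27.8% of their GM mean, from 3.49% for Gins2 to 402% for Orc4. In shRNA cells the median was 52.3%, from 16.3% for Cdc6 to 239% for Orc4. The share was higher in shRNA cells for 40 of 46 genes. That count was not made over all probe sets, so it is not shown to be particular to these genes. Of all tested MA probe sets 25.4% were lower in DM with the vector and 17.5% with the shRNA. By step, the loaders with their inhibitor kept a median of 16.1% with the vector and 31.1% with the shRNA. The helicase kept 19.3% and 37.3%, and the lagging-strand pair 11.0% and 46.3%. The nucleotide genes kept 13.3% and 39.2%, and alpha-primase 28.8% and 63.2%. Origin recognition had medians of 202% and 132%, and 1 of its 5 tested genes had the higher share in shRNA cells. Since the share divides by the GM mean, the genes that were lower in GM with the shRNA show a higher share partly through that denominator.

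**Figure D4:**
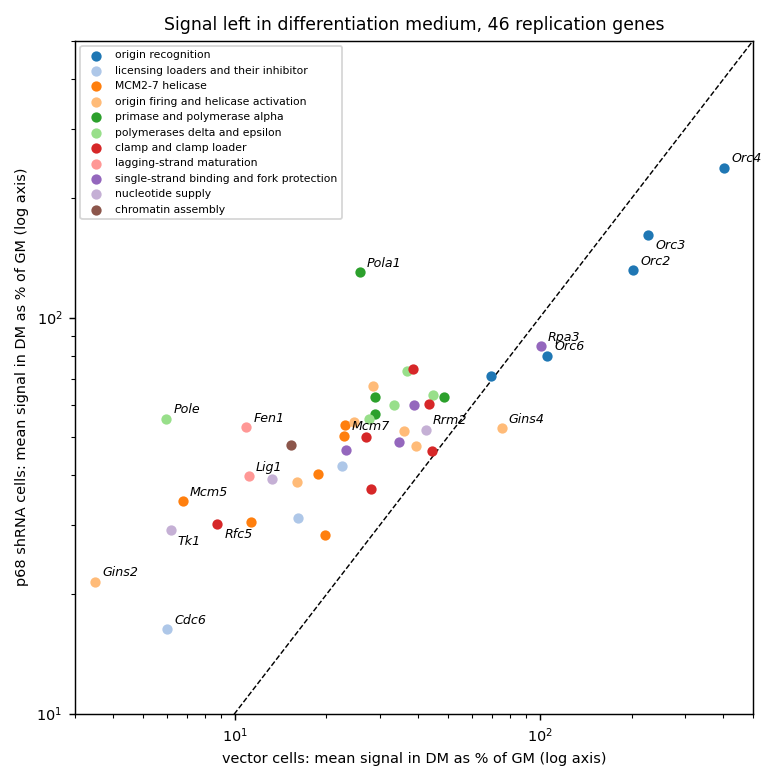
Percent of the GM signal left in DM in vector cells (x axis) and shRNA cells (y axis), both log axes, for 46 replication genes coloured by step, with a dashed line of equality. Of the 46 points 40 lie above the line, a count not made over all probe sets, and the origin recognition genes sit at the upper right.

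Counted by probe set rather than by gene, of 85 MA probe sets 74 were tested, and 62 were lower and 4 higher from GM to DM in vector cells, 56 and 2 in shRNA cells. With the shRNA 42 were higher and 1 lower in DM, 1 higher and 10 lower in GM, and 37 had a positive interaction. Of 22 genes with more than 1 tested MA probe set, Orc3 was the one whose probe sets differed in sign in vector cells. On MB, where 18 of 20 were tested, 6 were lower from GM to DM in vector cells and 4 in shRNA cells, against 5.0% and 2.57% of all tested MB probe sets. In DM 3 MB probe sets were higher with the shRNA, against 0.782%, and 2 had a positive interaction, against 0.223%.

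Genes near the 49 in function were read from further lists. Of 15 further fork and replisome factors tested on MA, 11 fell and 2 rose in vector cells, beside 25.4% and 23.9% of all tested MA probe sets, and 8 were higher with the shRNA in DM, beside 10.7%. Of 7 more read on MB, 5 fell, beside 5.0%, and 1 rose, and no DM difference passed, that of Clspn being 0.87 (0.0905). Chtf18, part of an alternative clamp loader, had a vector change of -2.94 from a mean of 117.5. Its DM means of 2.246 with the vector and 22.44 with the shRNA were both under the signal filter. It counts among the 11 and the 8, but passed the filter through GM arrays alone, which favoured its fall. Timeless, the partner of Tipin, had -2.22 and 1.06, and Top2a, which untangles sister DNA, -2.12 and 1.31. Clspn, a checkpoint mediator at the fork, had a vector change of -2.29 on MB. Top1, Pold4 and Rnaseh2b were the 3 that rose, by 1.47, 0.77 and 0.66.

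Among 10 measured genes of nucleotide metabolism, all on MA, 6 fell and 1 rose in vector cells and 2 were higher with the shRNA in DM. That rise of 1 in 10 lay below the 23.9% of all tested MA probe sets, and 2 of 10 higher in DM is a small count beside 10.7%. Dck, a salvage kinase with a DM vector mean of 14.97, changed by -2.77 with a DM difference of 1.28, and Dut, which clears dUTP, by -1.98 with 0.77. Rrm2b, the p53-inducible reductase subunit, rose by 0.97. Of 9 measured S phase chromatin genes, all on MA, 7 fell and 1 rose, and 5 were higher in DM with the shRNA, beside the same MA shares. They included Uhrf1 and Dnmt1, which copy DNA methylation (-3.11 and 1.56, then -1.83 and 0.99), and Asf1b, a histone chaperone (-2.36 and 0.91), while its paralog Asf1a rose by 0.91. Of 15 S phase regulators tested on MA, 6 fell and 4 rose in vector cells, beside 25.4% and 23.9% of all tested MA probe sets. The rises lay near that share. With the shRNA 5 were higher in DM, beside 10.7%. Of 2 on MB, 1 fell and was higher in DM with the shRNA (E2f7), beside 5.0% and 0.782%. The other, E2f2, rose by 0.84 in vector cells and was lower with the shRNA in GM (-1.49, limma adjusted p = 0.00017). E2f1 changed by -2.04 with a DM difference of 0.93, Ccna2 by -2.45 with 1.22, and Ccnd1 by -3.47 with 1.63, whereas Cdkn1c, a cyclin-dependent kinase inhibitor, rose by 6.16. The other risers on MA were Cdkn1a (2.21), Rb1 (1.88) and Cdk2 (0.50).

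Muscle markers moved beside these genes. In DM the summed signal of the 6 muscle markers lay between 13870 and 15630 on the shRNA arrays, below every vector array. With the shRNA 3 of the 6 were lower in DM, beside 6.24% of all tested MA probe sets. They were Ckm, muscle creatine kinase (-0.99, limma adjusted p = 0.000199), Myh3, embryonic myosin (-0.58, 0.0026), and Des, desmin (-0.52, 0.0413). Myog (-0.36, 0.174) and Myod1 (-0.20, 0.359) did not pass. Myf5 went the other way, from a DM mean of 22.08 with the vector to 39.72 with the shRNA. Its DM arrays did not overlap, but the difference of 0.56 did not pass (0.0869). In GM the sums were 2699 to 3192 with the shRNA and 3315 to 3675 with the vector. There 1 of the 6, Ckm, was lower with the shRNA (-0.53, limma adjusted p = 0.0338), beside 2.57% of tested MA probe sets. Des changed by -0.49 in GM and did not pass (0.0947), and its DM arrays overlapped between constructs. The interaction passed for 0 of the 6, beside 5.48% positive and 4.48% negative, with Myh3 at -0.51 (0.0581) and Ckm at -0.46 (0.167). Of the markers of other cell types, summed signals in DM were 320.0 to 559.4 with the vector and 311.3 to 394.7 with the shRNA, and 8 of the 17 markers, Ptprc, Pecam1, Tek, Epcam, Cdh1, Adipoq, Lep and Ibsp, reached a signal of 30 on 0 of 12 arrays. Csf1r and Kdr reached it on 12 arrays, Lyz2 on 11, Adgre1 and Krt8 on 9, Acan on 6 and Cd68 on 3. The part of the muscle markers' difference in the replication genes' difference was not tested.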

How the data were processed

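Affymetrix arrays of 2 designs profiled 4 groups of 3 arrays each. Groups came from the titles, which for 2 arrays were the sole label to give them. The authors deposited 1 linear intensity per probe set and array, and the submitters' processing notes name MAS5, with version and settings not given in the sources consulted. The trimmed means of the arrays were nearly equal, so they came already scaled. Arrays give no molecule counts, so their number limits the precision.

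Signals were analysed as log2(signal + 15), which understates changes of dim genes. Probe sets at 30 or more on at least 3 of 12 arrays were tested, 14367 on MA and 19303 on MB. Each design had 1 fit of its 4 groups in limma 3.58.1 under R 4.3.3, with 8 residual degrees of freedom, eBayes with trend, and Benjamini-Hochberg adjustment over all tested probe sets of the design at 0.05. The designs were tested apart. The fit was tested on simulated data. An exact permutation of 3 against 3 arrays cannot go below 0.1 and was not used. No 2 arrays held identical values.

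Probe sets were named by the platform annotation, and those with several symbols, such as 1 that names Tyms with a pseudogene, were not used. Promoters came from RefSeq (GRCm38.p6).

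Members, gene lists and the naming rule were chosen with earlier results of these data known. The rule took, per step, the largest and smallest vector change among members with a group mean of at least 150 (both members in steps of 2), and always Orc1, Cdc6, Cdt1, Gmnn, Mcm5, Pcna, Tk1 and Rrm2, with all MCM subunits by group means. From the further lists it took up to 4 genes each. Outside it, Orc2, Orc4, Orc5, Pola1, Rpa3 and the other members given by single values were named after their values were seen. So were Rrm2b, Asf1a, the risers among the fork factors, and E2f2, Cdkn1a, Rb1 and Cdk2. Alternatives were the pseudocount, the filter, quantile scaling, a replicate block, a fit of the compared groups alone, eBayes without trend, the mean of all probe sets and each array left out.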

Additional observations from a re-analysis of the deposited data

Results flagged for a closer look

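The effect of the shRNA differed between DM and GM, tested as the interaction in limma at an adjusted p under 0.05, for 25 of the 46 tested replication genes. It also differed for 13 further MA probe sets of these genes and of Mcm2, and for 1 on MB, of Mcm5. All these values were positive, so the shRNA minus vector difference was higher in DM than in GM. The gene values on the log2 scale were 2.45 for Fen1 (1.80 without DM vector array 2, and 1.06 at its second probe set), 2.256 for Gins2, 2.207 for Pole, 2.157 for Mcm5, with 1.842 for its MB probe set, and 2.093 for Tk1. They were 1.677 for Lig1, 1.574 for Rfc5, 1.562 for Pola1, 1.476 for Rrm1, 1.32 for Chaf1b and 1.313 for Mcm3. Further probe sets of Pola1, Rrm1 and Chaf1b, given above, overlapped between constructs in DM. So did some further probe sets of other genes listed here, among them Mcm6, Mcm7, Pold1, Prim2 and Rfc2. Others, such as the second probe sets of Fen1 and Gins2, did not. The other helicase subunits and Rpa1 followed with 1.123 for Mcm7, 1.099 for Mcm4, 1.054 for Mcm6 and 0.98 for Rpa1. The remaining values were 0.96 for Cdc45, 0.955 for Pold2, 0.923 for Prim2, 0.919 for Pold1, 0.887 for Cdt1, 0.865 for Prim1, 0.862 for Dbf4, 0.819 for Rfc2, 0.775 for Rfc1 and 0.72 for Pole2. No member had 4 or more arrays in a group, so single arrays were not tested as outliers.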

How the results depend on the processing

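Leaving out single arrays and changing the settings reversed the sign of 0 called values. Of the called genes, 39 of 41 vector falls, 32 of 36 shRNA falls, 19 of 28 DM rises and 18 of 25 interactions kept their call under every alternative run, while 0 of the 8 GM calls did. In GM 1 member was higher at the settings used. That count was 0 without the signal filter, 0 with eBayes without trend and 2 when the compared groups were fitted alone, and leaving out single arrays gave 0 to 1. The count of 7 members lower in GM was 12 with the compared groups alone and 0 to 10 with arrays left out. The count of 2 genes higher in DM than GM in shRNA cells was 1 with the mean of all probe sets, and 1 to 2 with arrays left out. The 1 gene lower with the shRNA in DM became 0 with the compared groups alone, and 0 to 2 with arrays left out. The 0 negative interactions became 0 to 2. The cause of these moves was not tested. The spread of MB, and signals near the pseudocount for Cdc6, Pole and Pola1 in DM, limit those values.

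With the replicate number as a block the counts of higher and lower genes were 3 and 41, 2 and 37, 28 and 1, 2 and 7, and 24 and 0, in the order vector medium change, shRNA medium change, DM, GM and interaction. Under the block Gmnn passed in GM (0.0285). Over 13 pairs of MA arrays of the same number, deviations correlated at -0.139 to 0.293, with a median of 0.093. The 41 MA pairs of unlike number gave -0.277 to 0.204, with a median of -0.024. On MB the medians were 0.011 and -0.003. Any pairing was thus weak, and it was not tested.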
